A study of Mus musculus with 6 samples.

Results

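Adipogenic regulators are described here across 3 mouse osteosarcoma lines and 3 samples of cultured mouse osteoblasts, each on 1 Affymetrix array. The 10 genes, Pparg, Cebpa, Cebpb, Cebpd, Klf15, Srebf1, Ppargc1a, Rxra, Ebf1 and Zfp423, were chosen by name from 19938 measured genes. Each is represented by its brightest probe set (by mean over the 6 arrays), and Ppargc1a alone has more than 1 probe set. The name transcription factors holds for 9 of the 10, since Ppargc1a encodes a coactivator that binds no DNA itself.

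The tumour lines, OS_493H, OS_494H and OS_716H, were grown from primary tumours. The mice were C57Bl6 and carried Osx-Cre and homozygous floxed alleles (fl/fl) of both p53 and Rb. Osx-Cre is active in cells of the osteoblast lineage, so each line stands for 1 tumour started in that lineage. The labels give ages of 188, 190 and 226 with no unit, for a female hip tumour, a male hip tumour and a female tibial tumour. The osteoblasts were KUSA4b10, a marrow stromal line labelled C57Bl6, held for 21 days after confluence in medium with 50 ug/ml ascorbate, and no genotype is labelled for it. The 3 samples, called cultures 1 to 3, are numbered as replicates and tagged Ex1, Ex2 and Ex3 in their titles. The labels do not say what the tags mean or that the samples were grown separately. The p-values may therefore measure in part a technical spread, and they do not cover other osteoblast lines. No differentiation step is labelled for the tumour lines, so growth state and differentiation cannot be told apart from the origin in a tumour.

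Fat cell formation from stromal cells runs as a relay of transcription factors. C/EBPbeta and C/EBPdelta act early and switch on PPARgamma and C/EBPalpha, which then maintain each other and turn on the genes of the fat cell. PPARgamma binds DNA as a pair with RXRalpha. Zfp423 and the EBF factors mark cells committed to the fat lineage, KLF15 and SREBP-1 drive insulin-linked lipid and glucose genes, and PGC-1alpha raises mitochondrial and heat-producing genes. Marrow stromal cells can form either bone or fat, and PPARgamma favours fat at the expense of bone.

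Values are log2 expression after RMA. The arrays were similar in overall level, with array medians of 7.45 to 7.58. Rb1, a floxed gene of the model, was lower in the lines than in the cultures (log2 difference -1.05, limma adjusted p = 0.00427). OS_716H, labelled female, held the Y-linked transcripts Eif2s3y, Uty and Kdm5d at 10.11, 10.06 and 8.92, close to the male line OS_494H (9.96, 9.90 and 8.85), and Xist at 5.50 against 12.62 in OS_493H. The sex label and the array of OS_716H therefore do not match, and results are given with and without it. Culture 2 differed from culture 1 by more than 1 log2 unit in 150 genes, whereas cultures 1 and 3 differed so in 3. In the cultures the osteoblast and osteocyte genes Ibsp and Dmp1 averaged 13.23 and 11.16, and the fat cell genes Adipoq and Plin1 averaged 11.88 and 10.51, so cells labelled as osteoblasts also carried fat cell transcripts. Runx2, Bglap and Spp1 were not analysed here.

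Of the 10 regulators, 5 fell and 1 rose in the osteosarcoma lines at an adjusted p under 0.05, and 4 did not pass. Pparg, Cebpa, Ppargc1a, Zfp423 and Klf15 fell, and Srebf1 rose. Over all 19938 genes 24.6% were called, 13.2% higher and 11.4% lower (limma with Benjamini-Hochberg adjustment). The balance over all genes turned with the scaling, to 12.1% higher and 13.5% lower after quantile normalisation and 11.6% and 13.1% after median centring. The groups did not overlap for 7 of the 10, against 41.5% of all genes. The median log2 difference was -0.52 for the 10 and -0.02 for all genes. Without OS_716H the same counts of 5 lower and 1 higher were found, against 10.7% and 14.0% of all genes (24.7% in either direction, with 54.9% not overlapping). On leaving out each array in turn, 4 to 6 of the 10 were called. The share of all genes called was then 13.8%, 19.5% and 14.8% without cultures 1, 2 and 3, and 19.4% and 25.3% without OS_493H and OS_494H. With a 2-fold minimum 3 of the 10 were called, against 6.88% of all genes, and at an adjusted p under 0.01 again 3, against 12.4%.

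**Figure D1:**
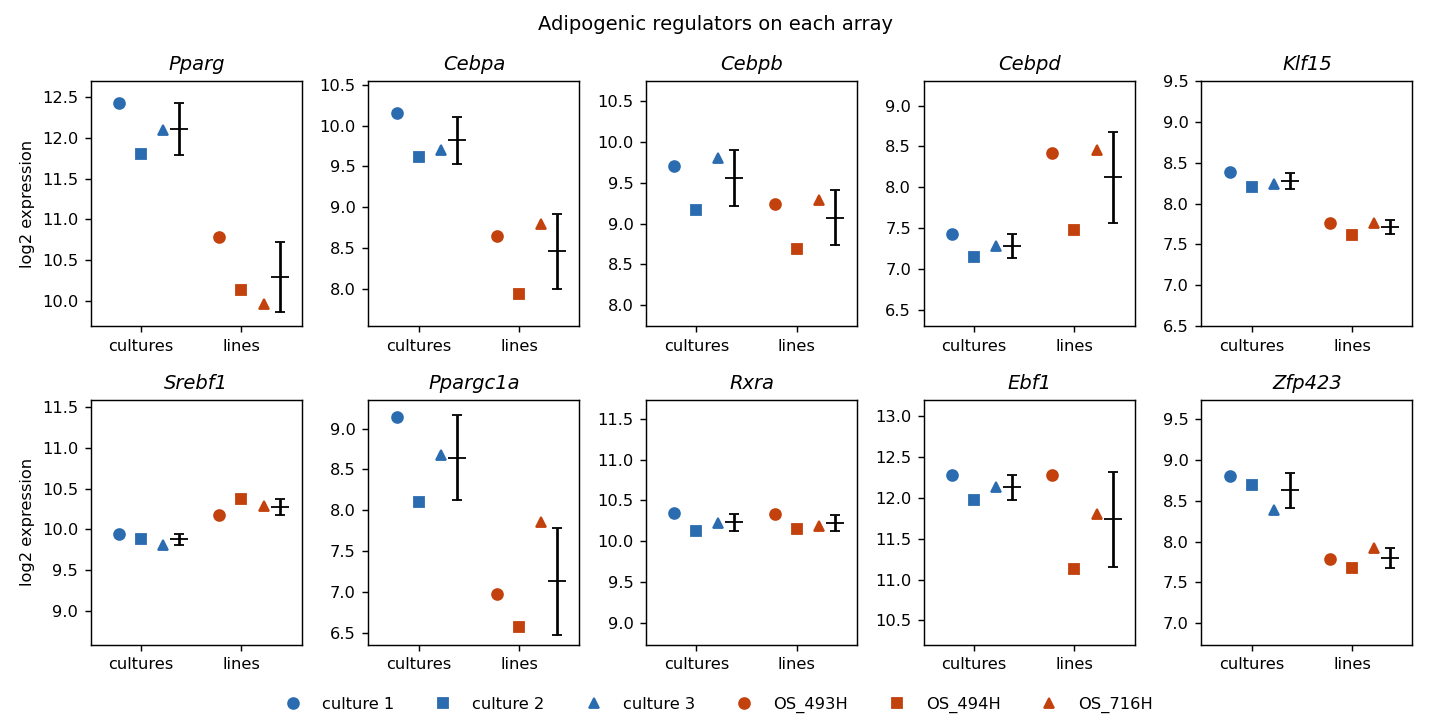
Log2 expression (y axis) of the 10 regulators on each array, with cultures in blue and osteosarcoma lines in orange, a symbol for each array, and the group mean with its SD (n = 3) in black. Each panel spans 3.0 log2 units. The cultures lie above the lines for Pparg, Cebpa, Klf15, Ppargc1a and Zfp423, below them for Cebpd and Srebf1, and overlap them for Cebpb, Rxra and Ebf1.

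Pparg encodes PPARgamma, the nuclear receptor required for fat cell formation. It was 12.43, 11.80 and 12.10 in cultures 1, 2 and 3 and 10.78, 10.14 and 9.96 in OS_493H, OS_494H and OS_716H. Every line lay below every culture, and the gap of more than 1 log2 unit between the lowest culture and the highest line exceeded the spread inside either group. The fall was 3.53-fold (log2 difference -1.82 ± 0.25 SE, 95% interval -2.41 to -1.22, limma adjusted p = 0.0034). Without OS_716H it was -1.65 (adjusted p = 0.00908). RefSeq lists 3 starts for the gene, and a single probe set does not separate the transcripts from them.

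Cebpa encodes C/EBPalpha, the partner of PPARgamma in keeping the fat cell state. It was 10.15, 9.61 and 9.70 in the cultures and 8.65, 7.94 and 8.80 in OS_493H, OS_494H and OS_716H. OS_494H was the lowest array, and no line reached the lowest culture. The fall was 2.56-fold (log2 difference -1.36 ± 0.25 SE, 95% interval -1.96 to -0.75, adjusted p = 0.0101), and -1.53 without OS_716H (adjusted p = 0.0117). Both Pparg and Cebpa kept an adjusted p under 0.05 when any 1 array was left out (up to 0.0188 and 0.0423).

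The sequence just upstream of a start is where the factors of this relay could meet each other's genes, and 9 of the 10 genes had such a window in the RefSeq promoter table (build GRCm38.p6, 16 windows of 250 bases). Cebpd was not among them. The windows of Pparg (start 3 of 3, chr6:115421816-115422065, plus strand) and Cebpa (chr7:35119043-35119292, plus strand) are shown because these genes fell together, and each ends at the base before the start. Capitals mark the letters TTGCNNAA and TTGCG (C/EBP-type), CCAAT and TATAAA, searched on both strands.
Pparg: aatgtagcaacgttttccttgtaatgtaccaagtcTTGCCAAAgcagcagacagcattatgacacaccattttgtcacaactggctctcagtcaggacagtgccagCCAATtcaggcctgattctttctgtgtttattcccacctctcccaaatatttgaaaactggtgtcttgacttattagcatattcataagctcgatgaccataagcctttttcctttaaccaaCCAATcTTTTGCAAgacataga
Cebpa: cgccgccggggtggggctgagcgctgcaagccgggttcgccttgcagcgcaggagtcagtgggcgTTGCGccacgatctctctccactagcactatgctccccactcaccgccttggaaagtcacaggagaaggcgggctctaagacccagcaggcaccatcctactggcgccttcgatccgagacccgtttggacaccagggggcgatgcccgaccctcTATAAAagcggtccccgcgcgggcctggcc
The Pparg window held TTGCNNAA beginning 215 and 16 bases before the start and CCAAT beginning 144 and 22 bases before it, with no overlap between these. The Cebpa window held TTGCG 185 bases before the start and TATAAA 30 bases before it. Over all 32851 windows of this length, TTGCNNAA occurred in 9.56%, TTGCG in 14.5%, CCAAT in 33.8% and TATAAA in 12.4%, and TTGCG could overlap TTGCNNAA elsewhere. Of the 16 windows of the regulators, 2 held TTGCNNAA, 3 TTGCG, 5 CCAAT and 2 TATAAA, and the windows of Pparg starts 1 and 2 held neither C/EBP-type motif. These are matches of letters only, and binding was not measured.

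Of the early C/EBP genes, neither passed the threshold. Cebpb, which encodes C/EBPbeta, was 9.71, 9.17 and 9.80 in the cultures and 9.24, 8.69 and 9.29 in OS_493H, OS_494H and OS_716H. The groups overlapped, because culture 2 lay below OS_493H and OS_716H. The log2 difference of -0.49 did not pass (95% interval -1.02 to 0.04, adjusted p = 0.172, and 0.146 without OS_716H). Cebpd, which encodes C/EBPdelta, was 7.43, 7.14 and 7.28 in the cultures and 8.42, 7.48 and 8.46 in the lines. The lines were above the cultures, although OS_494H exceeded culture 1 only narrowly. The log2 difference of 0.84 ± 0.26 SE (95% interval 0.20 to 1.47) did not pass (adjusted p = 0.0638, and 0.145 without OS_716H). Without OS_494H it was 1.16 and passed (adjusted p = 0.00152), and it also passed with array weights (0.0139) and among brighter genes (0.0489). The culture values of Cebpd lay below 7.53, the median of all values.

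The unequal change inside the C/EBP family was measured on each array as the log2 value of one gene minus that of another. Cebpd minus Cebpa was 2.19 higher in the lines than in the cultures, and 2.20 higher without OS_716H. Cebpb minus Cebpa was 0.87 higher and Cebpd minus Cebpb 1.32 higher. For each of 8 such pairs, chosen after the values were seen, the lines and cultures did not overlap. Because of that choice this is a description only, and the share of other gene pairs without overlap was not counted. The p of an exact permutation test (two-sided) was 0.1 for each (0.1 after Benjamini-Hochberg adjustment over the 8), the smallest value that 3 arrays against 3 allow. Any pair without overlap gives this value, so the test adds nothing for pairs chosen in this way. Other relatives of the family fell. Ddit3, which encodes CHOP, a stress-induced partner that blocks C/EBP binding, was 12.21, 12.02 and 12.46 in the cultures and 9.90, 9.43 and 9.84 in the lines, a 5.70-fold fall (limma adjusted p = 0.0005). Cebpg, a short dimerising C/EBP, fell 1.84-fold (adjusted p = 0.00143). Cebpe, a factor of granulocytes, differed by -0.06 (adjusted p = 0.63).

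Zfp423, a zinc finger factor of fat precursors, was 8.80, 8.69 and 8.39 in the cultures and 7.79, 7.68 and 7.92 in OS_493H, OS_494H and OS_716H. The lines were close to each other and all below culture 3, the lowest culture. The fall was 1.77-fold (log2 difference -0.83 ± 0.13 SE, 95% interval -1.13 to -0.52, adjusted p = 0.00488), and -0.89 without OS_716H (adjusted p = 0.00922). Its paralogue Zfp521, which opposes Zfp423 and restrains fat commitment, moved the other way. Zfp521 was 9.14, 9.58 and 9.12 in the cultures and 11.53, 10.95 and 11.27 in the lines, a 3.91-fold rise (adjusted p = 0.00115). Zfp521 minus Zfp423 was 2.79 log2 units higher in the lines, and 2.84 without OS_716H. It is one of the pairs chosen after the values were seen, and its p of 0.1 in the exact permutation test above follows from that choice.

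Ebf1, an early B cell factor that also acts in stromal and fat precursors, was 12.28, 11.98 and 12.13 in the cultures and 12.28, 11.13 and 11.80 in OS_493H, OS_494H and OS_716H. OS_493H equalled the highest culture, while OS_494H was the lowest array. The log2 difference of -0.40 did not pass (95% interval -1.05 to 0.26, adjusted p = 0.368, and 0.406 without OS_716H). Ebf2, a relative known from brown fat precursors, was 6.24, 6.13 and 6.26 in the cultures and 9.86, 7.93 and 10.04 in the lines. It rose 8.40-fold (log2 difference 3.07 ± 0.53 SE, adjusted p = 0.00771). The culture values lay well below 7.53, the median of all values, and were not shown to be above background, so the fold may be understated. The rise was present in each line but smallest in OS_494H. Ebf3 differed by 0.62 (adjusted p = 0.13) and Ebf4 by -0.12 (0.392). Ebf2 minus Ebf1 was 3.46 log2 units higher in the lines, and 3.11 without OS_716H.

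Ppargc1a encodes PGC-1alpha, the coactivator of mitochondrial and thermogenic genes. It was 9.14, 8.10 and 8.68 in the cultures and 6.97, 6.57 and 7.85 in OS_493H, OS_494H and OS_716H. It varied most inside both groups, by 1.04 over the cultures and 1.28 over the lines, and OS_716H lay only narrowly below culture 2. The fall was 2.85-fold (log2 difference -1.51 ± 0.38 SE, 95% interval -2.43 to -0.60, adjusted p = 0.0304), and -1.87 without OS_716H (adjusted p = 0.0113). The call was lost without culture 1 (adjusted p = 0.106), culture 3 (0.0983), OS_493H (0.0888) or OS_494H (0.0568). A dimmer probe set of the gene gave -1.38 (adjusted p = 0.0679 over all probe sets), with overlapping groups. The related coactivator Ppargc1b fell 1.77-fold (adjusted p = 0.00355), and Pprc1 differed by -0.22 (0.104).

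Klf15, a Kruppel-like factor of fat, liver and muscle metabolism, was 8.38, 8.20 and 8.24 in the cultures and 7.76, 7.62 and 7.76 in OS_493H, OS_494H and OS_716H. The groups were tight and well apart. The fall was 1.47-fold (log2 difference -0.56 ± 0.08 SE, 95% interval -0.76 to -0.36, adjusted p = 0.00434), and -0.58 without OS_716H (adjusted p = 0.00986). Of 16 other Kruppel-like factors, 3 fell and 1 rose, with a median difference of -0.02, equal to that of all genes. These 4 of 16 are close to the 24.6% called over all genes. Klf9, a hormone-induced factor that favours fat formation, fell 2.81-fold and Klf13 fell 1.74-fold. Klf4, an early factor upstream of Cebpb, fell 2.87-fold, but without any 1 array other than OS_493H its call was lost (adjusted p 0.0527 to 0.106). Klf7, which restrains fat formation, rose 1.59-fold, and this call was lost without culture 1, culture 3, OS_493H or OS_494H (0.0533 to 0.0941). Without culture 1, and likewise without culture 3, 2 of the 16 were called, against 13.8% and 14.8% of all genes. Without OS_716H 3 were, against 24.7%.

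Srebf1 encodes SREBP-1, the activator of fatty acid synthesis genes, and was the only regulator of the 10 that rose at the threshold. It was 9.94, 9.88 and 9.81 in the cultures and 10.17, 10.37 and 10.29 in OS_493H, OS_494H and OS_716H. Every line exceeded every culture, and the step was small. The rise was 1.32-fold (log2 difference 0.40 ± 0.08 SE, 95% interval 0.20 to 0.60, adjusted p = 0.0149), and 0.39 without OS_716H (adjusted p = 0.0346). The call was lost without culture 3 (adjusted p = 0.0669). Its relative Srebf2, which drives cholesterol synthesis, rose 2.11-fold (adjusted p = 0.00342), from 10.22, 10.70 and 10.22 in the cultures to 11.47, 11.35 and 11.57 in the lines. Srebf1 minus Pparg was 2.22 log2 units higher in the lines, and 2.05 without OS_716H.

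The upstream windows of Klf15 (chr6:90462326-90462575, plus strand) and of Srebf1 (RefSeq start 3 of 3, chr11:60210472-60210721, minus strand) are shown as those of a gene that fell and one that rose. Capitals mark CACGTG, the E-box to which SREBP and other helix-loop-helix factors bind, and CCAAT or its reverse ATTGG.
Klf15: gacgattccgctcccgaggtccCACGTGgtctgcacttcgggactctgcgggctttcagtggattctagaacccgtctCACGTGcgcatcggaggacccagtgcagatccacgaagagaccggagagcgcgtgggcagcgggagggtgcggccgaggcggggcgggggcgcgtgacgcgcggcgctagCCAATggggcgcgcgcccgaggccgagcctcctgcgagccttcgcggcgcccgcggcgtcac
Srebf1: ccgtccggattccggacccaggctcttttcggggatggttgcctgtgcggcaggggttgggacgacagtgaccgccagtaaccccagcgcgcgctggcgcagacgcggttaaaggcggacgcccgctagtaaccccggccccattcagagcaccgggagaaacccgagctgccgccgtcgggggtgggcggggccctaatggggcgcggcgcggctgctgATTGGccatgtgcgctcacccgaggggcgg
The Klf15 window held CACGTG beginning 228 and 172 bases before the start and CCAAT 62 bases before it. CACGTG occurred in 6.02% of all windows and in 1 of the 16 windows of the regulators. The Srebf1 window held CCAAT, on the other strand, 30 bases before the start and no CACGTG. The direct repeat of AGGTCA with a 1-base spacer, to which PPAR and RXR bind, was in none of the 16 windows and in 0.0335% of all windows. AGGTCA alone was in 4 of the 16, among them Pparg starts 1 and 2, and in 14.0% of all windows. The EBF core CCCNNGGG was in 3 of the 16 and 11.8% of all, and TCACNCCAC (SRE) in none and 1.05%. Of the other Srebf1 windows, start 1 held CCAAT and start 2 held no motif searched.

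Rxra encodes RXRalpha, the partner that PPARgamma needs to bind DNA. It was 10.34, 10.13 and 10.22 in the cultures and 10.33, 10.15 and 10.19 in OS_493H, OS_494H and OS_716H. The groups overlapped fully. The log2 difference was -0.01 (95% interval -0.22 to 0.20, adjusted p = 0.957), and 0.01 without OS_716H, so its sign has no meaning. A change larger than 0.22 in either direction lies outside the interval. Rxrb fell 1.30-fold (adjusted p = 0.0127), and Rxrg differed by -0.32 (0.108). Of 12 other receptors that pair with RXR, 3 fell and 1 rose, with a median difference of 0.14, against 11.4% lower and 13.2% higher over all genes. Nr4a1, an immediate early orphan receptor, fell 3.64-fold and Nr1h3, the liver X receptor that induces Srebf1, fell 2.28-fold, from 8.70, 8.32 and 8.54 in the cultures to 7.27, 7.16 and 7.57 in the lines. Ppard fell 1.27-fold and Thrb rose 1.59-fold. The call of Ppard was lost without culture 1, culture 3, OS_493H or OS_716H (adjusted p 0.0522 to 0.0972) and that of Thrb without culture 1 or 2 (0.0592 to 0.0759). Without OS_716H 2 of the 12 fell and 2 rose, against 10.7% and 14.0% of all genes. Without culture 1 only 2 were called, against 13.8% of all genes.

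**Figure D2:**
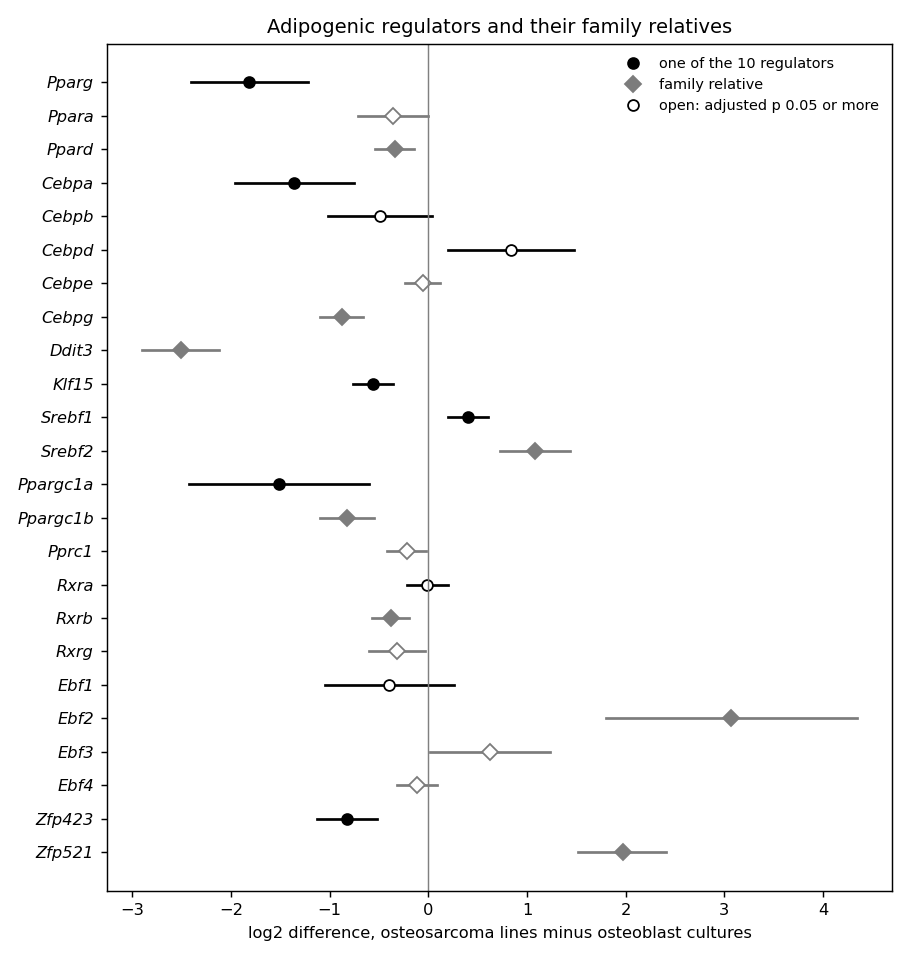
Log2 difference between osteosarcoma lines and osteoblast cultures (x axis, 3 arrays per group) for the 10 regulators (black circles) and 14 family relatives (grey diamonds), with 95% intervals from the limma fit. Filled symbols have an adjusted p under 0.05. Within families the members are spread out, as with Zfp423 at -0.83 and Zfp521 at 1.97.

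Of the 14 family relatives, 5 fell and 3 rose, and 4 fell and 3 rose without OS_716H. Of 22 other regulators that favour fat formation, 7 fell and 2 rose, with a median difference of -0.32, against 11.4% lower and 13.2% higher over all genes. Without OS_716H 7 fell and 1 rose, and after quantile normalisation 11 fell. Besides Klf4, Klf9 and Nr1h3, Egr2, a zinc finger factor upstream of Cebpb, fell 2.47-fold (adjusted p = 0.00673). Ebf2 rose, as given above, and Tle3, a corepressor that supports PPARgamma, rose 1.28-fold, a call lost after median centring and without any 1 array other than OS_493H (adjusted p 0.0512 to 0.106). Of 17 measured regulators that restrain fat formation, 5 fell and 4 rose, with a median of -0.04. Without OS_716H 4 fell and 4 rose. Dlk1, the preadipocyte factor, rose 8.10-fold, from 8.32, 7.98 and 8.09 in the cultures to 12.47, 10.81 and 10.17 in the lines. Gata2, which represses Pparg, rose 2.92-fold. Besides Ddit3, Trib3, a pseudokinase, fell 3.24-fold and Hes1, a Notch target, fell 4.26-fold, the latter not called without culture 1 or culture 3 (adjusted p 0.0527 to 0.0552). These lists share genes, such as Ddit3 and Zfp521, and their counts are not independent.

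Genes known as direct targets of PPARgamma and C/EBPalpha were lower almost throughout. Of 19 measured, 17 fell and none rose, against 11.4% lower and 13.2% higher over all genes. The median log2 difference was -2.38, and 18 fell without OS_716H. At an unadjusted p under 0.05 in limma, 19 were lower and 0 higher, and the share of all genes at that threshold was not counted. Adipoq, Cd36 and Retn had the largest falls of this list, with log2 differences of -5.95, -5.23 and -4.76. In the lines they lay at 5.79 to 6.13, 5.45 to 5.59 and 7.13 to 7.19, below the median of all values and not shown to be above background, so these falls may be understated. Targets of SREBP-1 in fatty acid synthesis went largely the other way. Of 14, 9 rose and 3 fell, with a median of 0.58, and 8 rose and 3 fell without OS_716H. Acss2, the acetate-activating enzyme, rose 5.45-fold, from 7.62, 7.67 and 7.30 in the cultures to 10.21, 10.03 and 9.69 in the lines. The fatty acid elongase Elovl6 rose 2.84-fold and the citrate lyase Acly 2.42-fold. Gpam, which starts triglyceride synthesis, fell 2.62-fold and the desaturase Scd1 1.41-fold. Pnpla3, also on the list of PPARgamma targets, fell 1.31-fold, a call lost without any 1 culture or OS_493H (adjusted p 0.0539 to 0.0779). Without culture 1, 5 rose and 2 fell, when 7.69% of all genes rose and 6.07% fell. Of 15 measured targets of PGC-1alpha, 3 fell and none rose, and 4 fell without OS_716H. This count of 3 of 15 is below the 24.6% called in either direction over all genes, but above the 11.4% that were lower. Without OS_716H 10.7% of all genes were lower. An excess was not tested. At an unadjusted p under 0.05 in limma, 5 were lower and 0 higher. The share of all genes at that threshold was not counted, so no excess can be read from this. The cytochrome oxidase subunit Cox8b fell 11.1-fold, from 10.87, 9.71 and 10.48 in the cultures to 6.75, 6.98 and 6.91 in the lines. Cox7a1 fell by 0.58 and the orphan receptor gene Esrra by 0.40 on the log2 scale, both not called without culture 1, culture 2 or OS_493H, and Cox7a1 also not without OS_494H (adjusted p 0.0543 to 0.085). Without culture 1, Cox8b alone was called, when 13.8% of all genes were. The heat-producing gene Ucp1, named after its value was seen, was 5.79 in the cultures and 5.90 in the lines, below the median of all values in both.

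**Figure D3:**
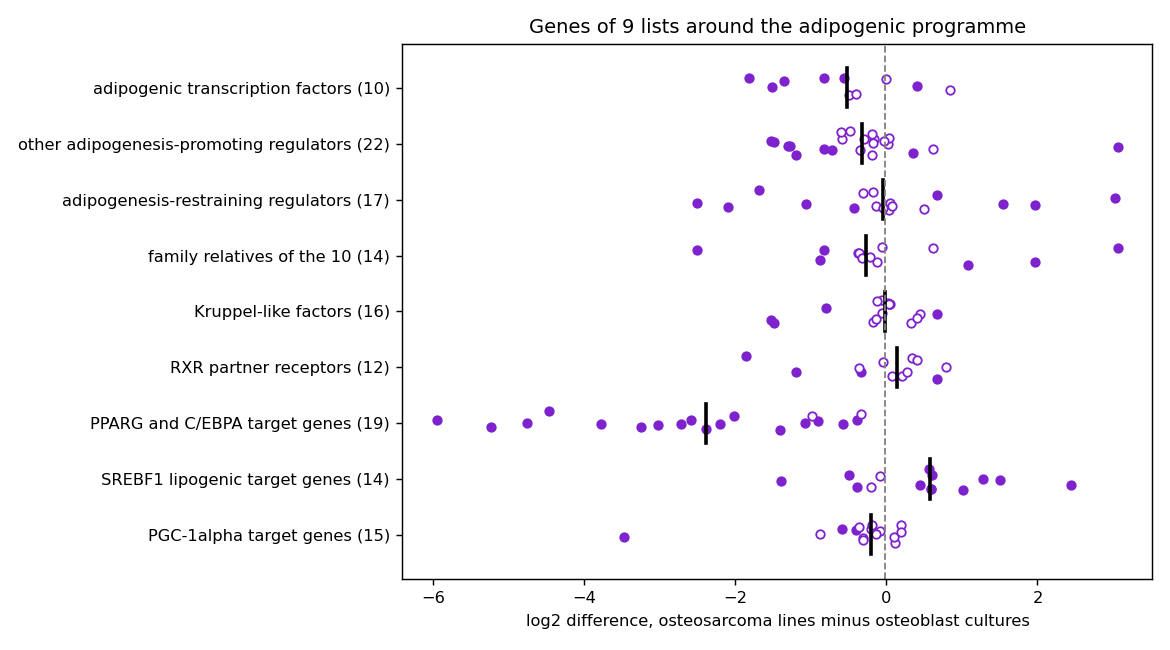
Log2 difference between osteosarcoma lines and osteoblast cultures (x axis) for the measured genes of 9 lists, with the number of genes in brackets. Filled points have an adjusted p under 0.05, black bars are list medians and the dashed line is the median of all genes (-0.02). The PPARgamma and C/EBPalpha targets have a median of -2.38 and the SREBP-1 targets one of 0.58.

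Markers of fat cells, osteocytes and dividing cells also differed between the groups, whereas most osteoblast markers were not called. Over all genes 11.4% were lower and 13.2% higher. Of 10 measured fat cell markers 9 fell, and their summed level (log2 of the sum of linear values) was 14.84 to 15.41 in the cultures and 10.65 to 11.20 in the lines. All of these markers but Car3 are also on the list of PPARgamma and C/EBPalpha targets above, so the 2 lists are not separate evidence. Of 6 osteocyte markers 4 fell, among them Phex (-4.73), Dmp1 (-4.36) and Phospho1 (-3.45), and their summed level was 13.06 to 13.35 in the cultures and 9.66 to 10.05 in the lines. Of 7 measured osteoblast markers 2 fell, Ibsp (-6.16) and Pth1r (-1.71), and 1 fell after quantile normalisation. Without OS_716H 3 fell, against 10.7% of all genes, and without any other 1 array 1 fell, against 6.07% to 11.6%. Alpl was 11.83, 13.03 and 11.72 in the cultures and 9.73, 10.29 and 12.41 in OS_493H, OS_494H and OS_716H. Alpl (-1.39) and Sp7 (-1.21) did not pass, and Col1a1, Col1a2 and Sparc differed by only -0.07, -0.03 and -0.04. The summed levels overlapped, at 15.43 to 16.09 in the cultures and 14.97 to 15.50 in the lines. All 10 measured markers of dividing cells rose, with a summed level of 12.23 to 13.32 in the cultures and 14.83 to 15.22 in the lines. Arrays give no value of 0. Of the 8 macrophage markers 7 were below the median of all values on every array, the exception being Cd68 at 7.92 to 8.37. Of the 7 endothelial markers 6 were below it on every array, the exception being Tek, at 9.05 in OS_493H. No marker of either list was called by limma. At an unadjusted p under 0.05 in limma, 1 of the macrophage and 0 of the endothelial markers passed, with the share of all genes not counted. With array weights 1 endothelial marker was called, when 31.1% of all genes were. The part of fat cell or bone cell content or of growth state in the changes of the regulators was not tested. In RNA from whole cultures, fewer fat cells and less RNA per cell cannot be told apart.

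The regulators also differed among arrays of the same group. Culture 1 was the highest culture for 9 of the 10 and culture 2 the lowest for 8 of the 10, against 34.7% and 38.5% of all genes. Culture 1 was likewise the highest for 9 of 10 fat cell markers, and culture 2 the highest for all 10 markers of dividing cells. Among the lines, OS_494H was the lowest for 8 of the 10 regulators, against 29.5% of all genes, with Pparg (lowest in OS_716H) and Srebf1 (lowest in OS_493H) as exceptions. It was also the highest line for all 10 markers of dividing cells. With 1 array per culture and per line these orders are a description and were not tested.

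**Figure D4:**
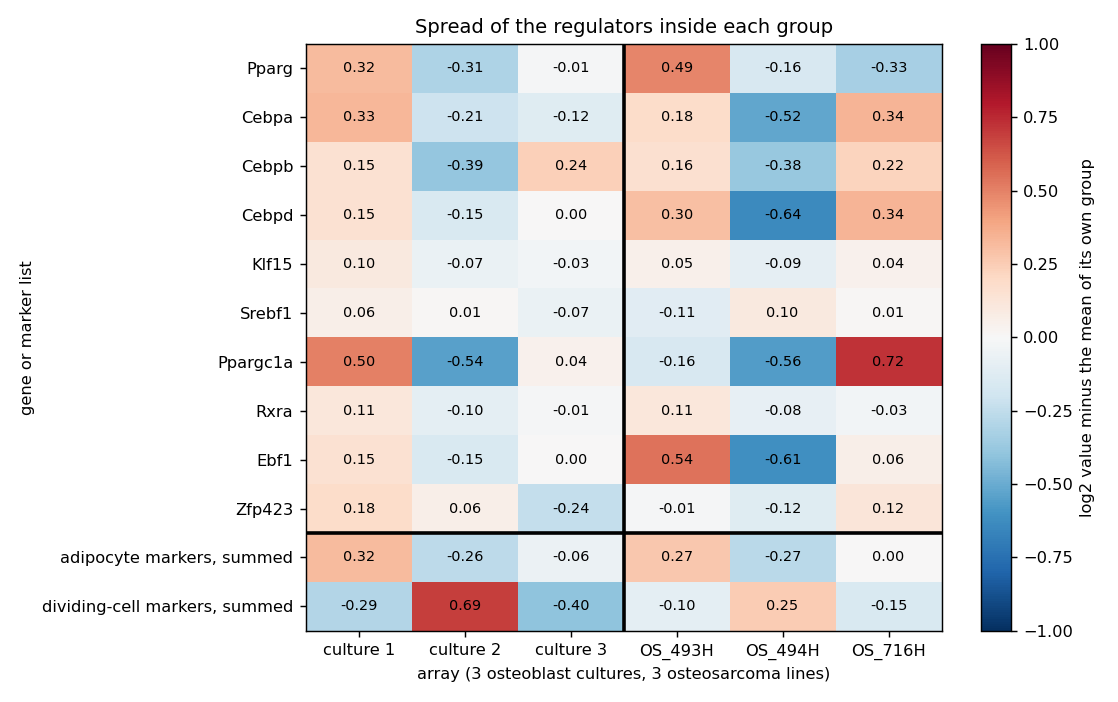
Log2 value on each array minus the mean of its own group (colour and number) for the 10 regulators and the summed fat cell and dividing-cell markers, in 3 cultures (left) and 3 osteosarcoma lines (right). Culture 2 and OS_494H are low for most regulators, for example -0.54 and -0.56 for Ppargc1a, and have the highest dividing-cell markers of their groups (0.69 and 0.25).

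For each called regulator the genes with the most similar values were found by the root mean square difference over the 6 arrays, after each gene was centred on its own mean. Nearest to Pparg were Map7d3, a microtubule-associated protein gene (0.15), Bst2, which encodes tetherin (0.16), and Ghr, the growth hormone receptor (0.16). Nearest to Ppargc1a were Klf9 (0.17), the ceruloplasmin gene Cp (0.18) and Klhl24 (0.19). Nearest to Cebpa were Mitf (0.16), Agt, which encodes angiotensinogen (0.17), and Chac1, a glutathione-degrading enzyme gene (0.17). For the smaller changes the nearest genes are less particular, because many other genes also lay close to them. Within 0.2 lay 371 genes for Zfp423, 2181 for Klf15 and 4345 for Srebf1, against 7 for Pparg, 22 for Cebpa and 5 for Ppargc1a. The nearest genes were Dkk1, Fam53b and Pced1b (0.08 each) for Zfp423. For Klf15 they were Mcur1 (0.03), Cyth1 and Ppt2 (0.04 each), and for Srebf1 Sdha, A630072M18Rik (0.03 each) and Rpap1 (0.04).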

How the data were processed

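Total RNA of 6 samples was hybridised to 1-colour arrays. The deposited values are log2 expression from RMA, and mm9 is the build that the submitters' processing notes name. The software is not given in the sources used here, nor are scan dates. RMA equalises array distributions and gives no detection call. Of 35556 probe sets, 21789 had 1 gene symbol in the platform annotation, 1621 had several and 12146 were not listed; 999 genes had several probe sets, and the one with the highest mean was used, leaving 19938 genes. All 6 columns were mapped by accession, and groups were taken from titles.

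Groups were compared with limma 3.58.1 in R 4.3.3 (lmFit, eBayes, two-sided, all arrays, no covariate), with Benjamini-Hochberg adjustment over all genes and a threshold of 0.05. On data simulated for this comparison over 19938 genes, 64% of genes changed 2-fold and 83% of those changed 4-fold were recovered, with 4 false calls among 151. The simulation used independent normal noise and changed only a small share of genes, all brighter than the median. Recovery of dim genes, and with as many changes as were called here, was therefore not tested. The regulators and lists were chosen with earlier results of these data known. Named are all 10 regulators, from each other list up to 3 called genes with the largest rise and 3 with the largest fall, family relatives, the 3 nearest genes of each called regulator, defining cell type markers, and Rb1 and sex-linked genes as label checks. Ucp1 and the gene pairs were chosen after their values were seen. The alternatives tried were median centring, quantile normalisation, keeping genes with a group mean above 7.53 in at least 1 group, an intensity trend, array weights, the mean of probe sets, a 2-fold minimum, a threshold of 0.01 and leaving out each array. The dimmer Ppargc1a probe set was added after seeing the data. Upstream sequences are those of RefSeq on GRCm38.p6.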

Additional observations from a re-analysis of the deposited data

How the results depend on the processing

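Precision is limited by having 3 arrays in each group, and signal over background is not known for these values. No paired analysis was possible, because the lines came from tumours and the cultures from KUSA4b10, and no line belongs with a culture. Quantile normalisation, median centring, the intensity trend, array weights, the mean of probe sets and the filter on dim genes kept the total called in each gene list, both directions together, within 1.5 times its value. Counts in 1 direction moved further: 11 other promoting regulators fell after quantile normalisation (7 before) and 1 rose after median centring (2 before). With array weights 2 of the 10 regulators, 3 Kruppel-like factors and 2 RXR partners rose (1 each before). More of all genes rose as well with these weights, 16.7% against 13.2% before. Among brighter genes these were 2, 2 and 0, when 40.6% of the 11632 genes kept were called in either direction (24.6% before). With the intensity trend 2 RXR partners rose, when 12.7% of all genes did. The added calls were therefore not shown to be particular to these lists. Marker totals moved for osteoblasts (2 to 1, quantile normalisation) and endothelium (0 to 1, array weights). A 2-fold minimum or a threshold of 0.01 left 1372 and 2466 of all genes called, 3 and 3 of the 10 regulators (Pparg, Cebpa and Ppargc1a, and Pparg, Klf15 and Zfp423), 2 and 1 Kruppel-like factors, 2 and 2 RXR partners, 5 and 7 SREBP-1 targets and 1 and 1 PGC-1alpha targets, and the 2-fold minimum left 4 family relatives.

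On leaving out each array in turn, the calls ranged from 2744 to 5047 over all genes, lowest without culture 1 and 2960 without culture 3. They ranged from 4 to 6 for the regulators, 7 to 9 for other promoting and 6 to 9 for restraining regulators, 6 to 10 for family relatives, 2 to 4 for Kruppel-like factors, 2 to 5 for RXR partners, 14 to 18 for PPARgamma and C/EBPalpha targets, 7 to 11 for SREBP-1 targets and 1 to 4 for PGC-1alpha targets. The difference of Rxra, not called in any setting, ranged from -0.06 to 0.05 and changed sign without culture 1, OS_494H or OS_716H. Fewer arrays were fitted in each of these cases; the cause was otherwise not tested.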
